A study of Mus musculus with 4 samples.

Results

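The genes described here encode the nuclear-encoded subunits of the mitochondrial respiratory chain and ATP synthase, and they were followed through the open chromatin of mouse liver. The members were 102 of 21631 protein-coding genes of the RefSeq table of GRCm38 on chromosomes 1 to 19 and X. They were chosen by symbol. Their names begin with Nduf, Sdh followed by a letter from a to d, Uqcr, Cox4 to Cox8, Cyc1, Cycs or Atp5. The rule uses no measured value, but it was chosen with earlier results of these data known. The symbol rule also took in 12 assembly factors (the Ndufaf and Sdhaf genes), 2 short copies of Ndufb4 and 8 cytochrome c oxidase genes or close relatives known as isoforms of other tissues or conditions. So the members are not all subunits of the chain that liver uses. The 13 protein genes of mitochondrial DNA carry other symbols and are not members.

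Accessible chromatin was measured by ATAC-seq, which uses Tn5 transposase to insert sequencing adaptors into open DNA. The PA group held 2 livers of mice with hypomorphic Pcca, labelled Pcca-/- (A138T), and the WT group held 2 wild-type livers. Propionyl-CoA carboxylase, of which Pcca encodes the alpha chain, is the enzyme deficient in propionic acidemia. All 4 mice were females aged 11 weeks on the FVB background and on standard chow, and each library came from frozen whole liver. The labels do not say what drives the hypomorphic form. For each library the data are one list of peak positions, nearly all 400 bp long, with no height or count, so depth is unknown. The lists held 25683 and 29765 peaks in PA 1 and PA 2, and 26280 and 25941 in WT 1 and WT 2. Of 10 hepatocyte marker genes, 3 had a peak near a gene end in all 4 libraries (Ttr, Apob and Cps1), and 1 (Apoa1) had none in any. Alb had one in PA 1 alone, and Fgb, Ahsg, Serpina1a, Hnf4a and Tat had one in 3 libraries each. Over all protein-coding genes 41.3% had such a peak in all 4 libraries and 48.3% had none in any, so the hepatocyte share in all 4 (30.0%) was below that of all genes. Of 30 markers of macrophages, endothelium, stellate cells, bile duct, muscle, brown fat and testis, 2 had such a peak in all 4 libraries and 24 had none. The macrophage marker Adgre1 had one in PA 1 and PA 2 and in no WT library, as did 0.661% of all protein-coding genes. The other 4 markers of macrophages and leukocytes (Ptprc, Cd68, Csf1r and Clec4f) had none in any library.

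The respiratory chain passes electrons from NADH (complex I) and succinate (complex II) through coenzyme Q, complex III and cytochrome c to oxygen at complex IV, and ATP synthase (complex V) uses the proton gradient that this builds. Its subunits come from both nuclear and mitochondrial genes, and the nuclear genes are known to be switched on together by the transcription factors NRF1, GABPA, YY1 and the ERR nuclear receptors with their PGC-1 coactivators. Liver cells are rich in mitochondria, and the propionyl-CoA that builds up in propionic acidemia is known to disturb mitochondrial energy metabolism.

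Most members carried gene-end peaks in every liver. A gene was counted as called in a library when a peak lay within 1 kb of its annotated start or end. In all 4 libraries 81 of 102 members (79.4%) were called, where the same count over all protein-coding genes gave 41.3%. In no library were 15 members called, against a background of 48.3%, and 6 were called in 1 to 3 libraries, against 10.4%. The genes of mitochondrial ribosomal proteins, another large set of nuclear genes for mitochondrial complexes, had 58 of 78 called in all 4 libraries (74.4%). No test was made of these shares, since genes are not replicates. A peak list records presence or absence alone, and in whole tissue fewer cells with an open site and a less open site per cell cannot be told apart.

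The groups of members differed in how many were called. All 8 complex II genes were called in all 4 libraries, as were 8 of 9 complex III genes, 40 of 47 complex I genes, 14 of 17 ATP synthase genes and Cycs, the gene of cytochrome c. Complex IV had the lowest share, 10 of 20. Its common subunits had 9 of 12, and the isoforms of other tissues or conditions had 1 of 8. Of the 12 assembly factors 11 were called. Without the isoforms and the copies of Ndufb4, 80 of the 92 other members (87.0%) were called in all 4 libraries.

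**Figure D1:**
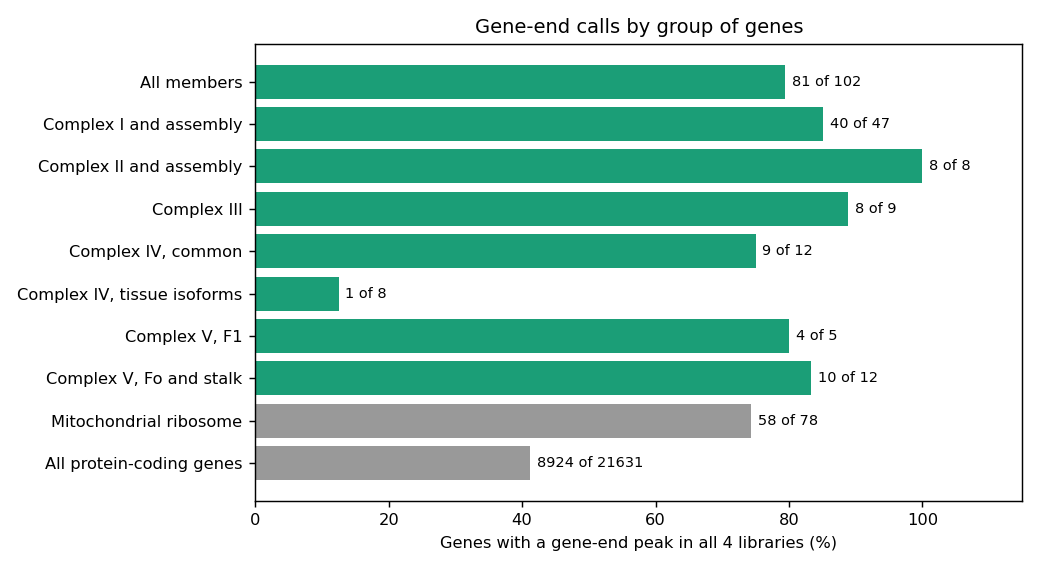
Bars give the percentage of genes with a peak within 1 kb of a gene end in all 4 libraries, for members by complex and role (green) and for the mitochondrial ribosome and all protein-coding genes (grey), with counts beside them. The 1 of 8 isoforms of complex IV stands below every other bar, and the all-gene bar stands at 41.3%.

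Neither genotype had a call of its own at any member's gene ends. The study compared PA with WT livers, and 0 members were called in PA 1 and PA 2 and in no WT library, where 0.661% of all genes were. The opposite pattern also gave 0 members, against 0.476% of all genes. With 102 members, less than 1 gene of each kind would match those shares, so a count of 0 is near the background. The number of members called was 84 in PA 1 and 86 in PA 2, and 85 in WT 1 and 84 in WT 2. The means were 85.0 ± 1.41 genes in PA and 84.5 ± 0.707 genes in WT (SD, n = 2 each), and the SD of the PA libraries exceeds the gap between these means. With 2 libraries a group there are 3 ways to split the 4 libraries into pairs, so an exact permutation cannot give a p below 0.33 and no test was run.

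The 6 members with a mixed call mixed the genotypes as well. Uqcr11, a small subunit of complex III, was called in PA 2 and WT 1, standing 42.4% and 55.4% of the way down those lists. Atp5l, which encodes subunit g of ATP synthase, was also called in PA 2 and WT 1, at 76.8% and 89.9%. Ndufaf1, an assembly factor of complex I, was called in PA 2 and WT 2, at 82.3% and 97.3%. Each of these 3 genes thus had 1 library of either genotype. Ndufb8, an accessory subunit of complex I, lacked a call in PA 2, and its peaks stood at 85.5% in PA 1, and at 89.4% and 82.6% in WT 1 and WT 2. Atp5j2, subunit f of ATP synthase, lacked a call in WT 2, with peaks at 72.8% and 66.6% in PA 1 and PA 2 and at 81.9% in WT 1. Apart from Uqcr11, the genes named so far in this group had their peaks in the last 50% of the lists. Ndufa13, another accessory subunit of complex I, lacked a call in WT 1 and stood higher, at 31.0% and 41.2% in PA 1 and PA 2 and at 33.5% in WT 2. The centres of its peaks lay at -1271 to -1259 bp from its annotated start, where negative positions are upstream, and within 1 kb of an end of the neighbouring gene Tssk6, and the start of Ndufa13 itself was called in no library.

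Place in the list gave the only graded value. The lines are not in genome order, and the sources used here do not say what orders them. For the 81 members called in all 4 libraries, the places of the highest gene-end peak correlated between lists with Spearman's rho from 0.927 to 0.967 over the 6 pairs of libraries. Over all 8924 genes called in all 4 libraries rho was 0.928 to 0.963. These are correlations across genes, which share position and base composition in all lists. The order within the family was therefore much alike in every liver. The median member stood 21.4% and 23.0% of the way down PA 1 and PA 2, and 25.1% and 22.5% down WT 1 and WT 2. Over all genes called in all 4 libraries the medians were 20.2% and 21.6% in PA 1 and PA 2, and 24.7% and 22.3% in WT 1 and WT 2. So members held about the same place as other called genes, and more of them were called.

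**Figure D2:**
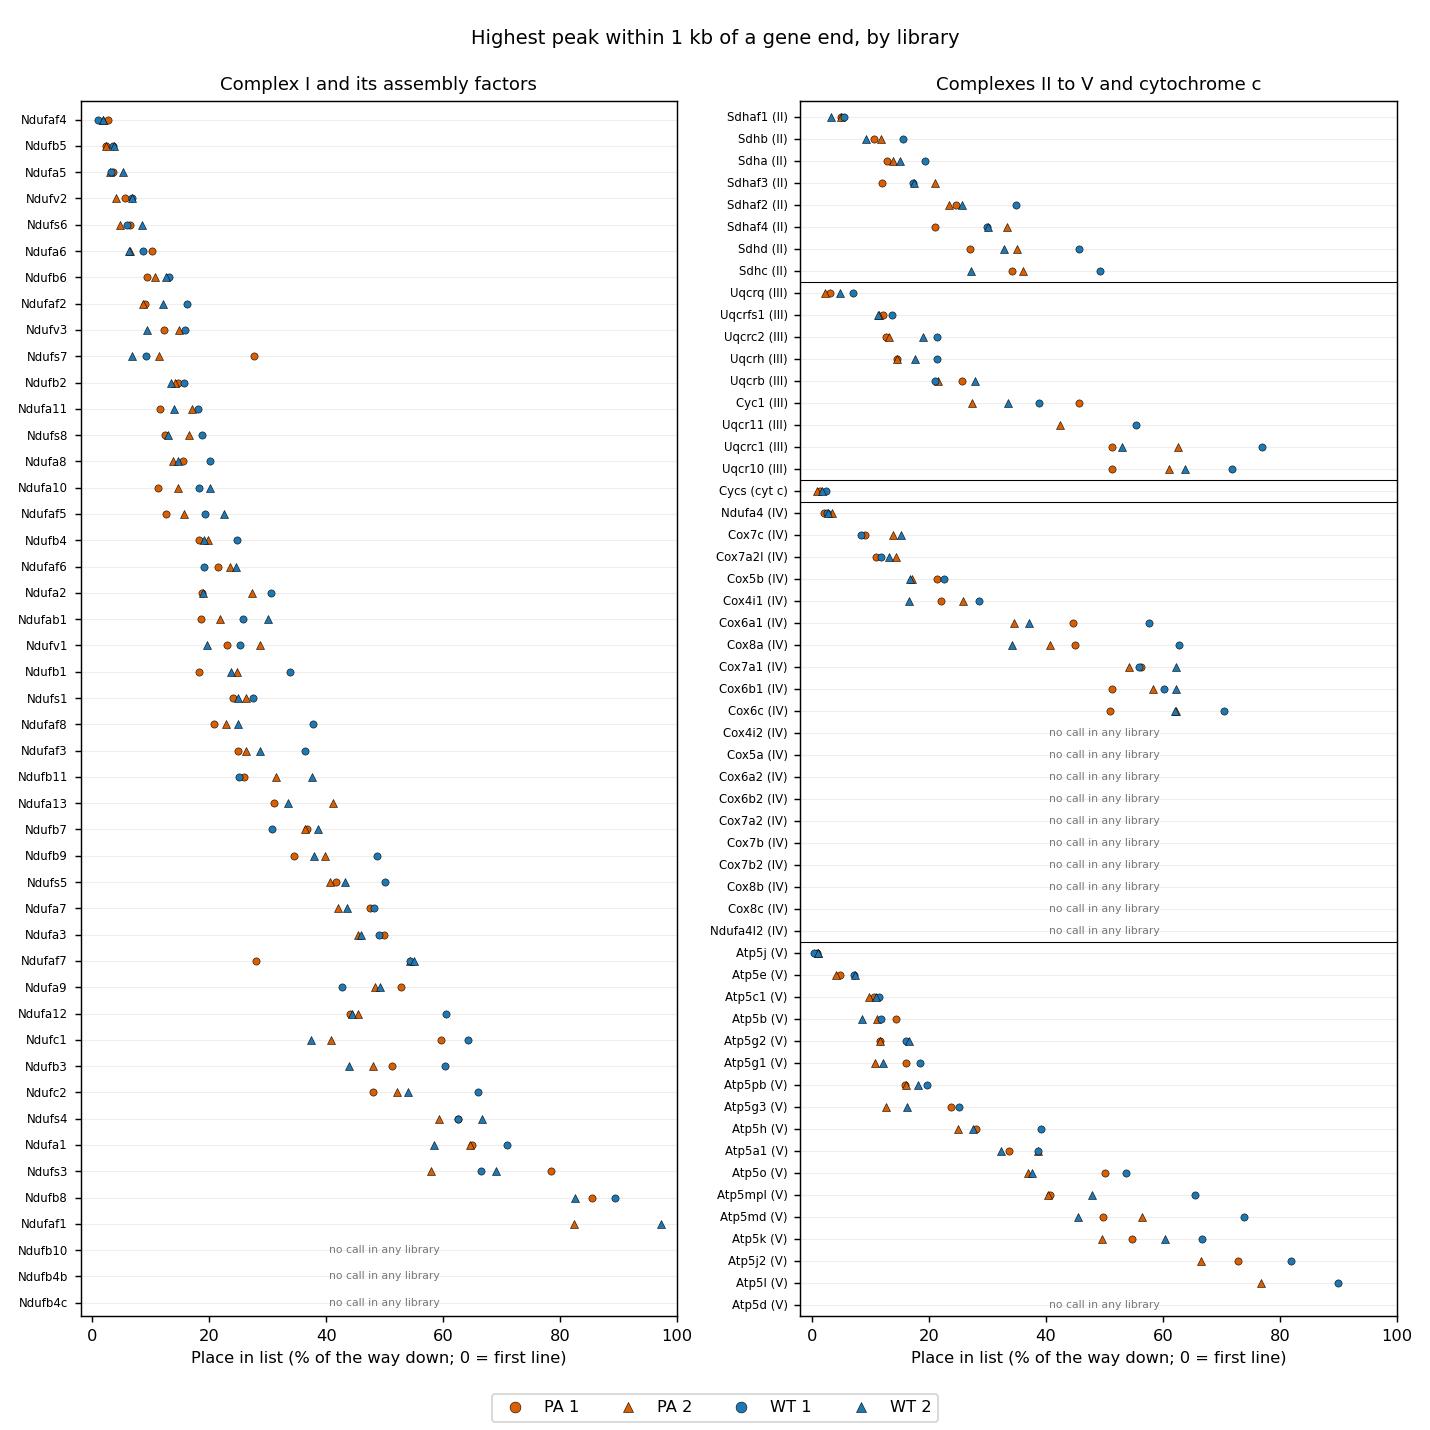
Each row is 1 member, ordered within its complex, and each symbol gives the place of its highest peak within 1 kb of a gene end in 1 library (PA orange, WT blue; circle replicate 1, triangle replicate 2), from 0% at the first line to 100% at the last. Members run from Atp5j at 0.785% on average to Ndufs3 at 68.0% among those called in all 4 libraries, and 10 complex IV genes have no call.

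The highest peaks belonged to several complexes. Atp5j, the coupling factor 6 subunit in the peripheral stalk of ATP synthase, stood 0.814% and 0.981% of the way down PA 1 and PA 2, and 0.361% and 0.983% down WT 1 and WT 2. Its peak also lay within 1 kb of an end of Gabpa, which encodes the DNA-binding subunit of GABP, so that a regulator of the chain and a subunit of it share this open site. Cycs stood at 1.27% and 0.914% in the PA lists and at 2.29% and 1.67% in the WT lists. Ndufaf4, an assembly factor of complex I, stood at 2.74% and 1.80% in PA and at 0.921% and 1.89% in WT. Ndufa4, now counted as a subunit of complex IV in spite of its name, stood at 1.96% and 3.44% in PA and at 2.48% and 2.77% in WT. The centre of its peak lay at -386 to -332 bp from its start, and the peak was also within 1 kb of an end of Phf14. In these 4 genes every library had its peak in the first 4% of the list. The next members were Ndufb5 and Ndufa5 of complex I, Uqcrq of complex III and Sdhaf1, which helps to insert iron-sulfur clusters into Sdhb. Their mean places were 3.01%, 3.76%, 4.25% and 4.62%. The peaks of Ndufb5, Ndufa5 and Uqcrq were also within 1 kb of an end of Mrpl47, Asb15 and Gdf9, in that order.

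The catalytic and core subunits were spread through the lists. In complex I the 6 core genes called in all 4 libraries had a median mean place of 19.7%, and the 27 accessory genes 25.1%. The core genes of complex I ranged from 5.83% to 68.0%. In ATP synthase the 4 genes of the F1 head had a median of 11.1%, and the 10 of its other parts 24.7%. Over all members called in all 4 libraries the median was 23.9%. Ndufs1 and Ndufv1, which carry iron-sulfur clusters and the NADH site of complex I, had mean places of 25.7% and 24.2%. Sdhb, the iron-sulfur subunit of complex II, had its peak at 10.5% and 11.8% in PA and at 15.5% and 9.21% in WT, and Sdha, the flavoprotein, had a mean place of 15.2%. Uqcrfs1, the Rieske protein of complex III, stood at 12.1% and 11.4% in PA and at 13.7% and 11.3% in WT. Cyc1, cytochrome c1, stood at 45.6% and 27.4% in PA and at 38.8% and 33.4% in WT, so that its libraries overlapped. Atp5b, the catalytic beta subunit of ATP synthase, had a mean place of 11.4%, and Atp5a1, the alpha subunit, one of 35.8%. The lowest members with a call in all 4 libraries were Ndufs3, a core subunit of complex I (68.0%), Ndufa1 (64.7%), Ndufs4 (62.8%), Uqcr10 (62.0%), Cox6c (61.4%), Uqcrc1 (61.0%), Cox6b1 (58.0%) and Atp5k (57.9%).

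How many members stood higher in the PA lists depended on how place was scaled. By percentage the mean place was higher in PA for 62 of 81 members (76.5%), against 70.6% of all genes called in all 4 libraries. By line number it was higher in PA for 52 members (64.2%), against 60.5% of all these genes. As a percentage of the list, both PA lists had the peak higher than both WT lists for 26 of 81 members (32.1%), where 29.3% of all genes called in all 4 libraries did, and the opposite held for 1 member, against 6.97%. As a line number, these counts were 15 members, against 16.6% of all genes, and 4 members, against 9.96%. The median member stood on lines 5485 and 6832 in PA 1 and PA 2, and on lines 6607 and 5824 in WT 1 and WT 2, so that the groups overlapped. PA 2 has the longest list, and the part of list length in the percentages cannot be told apart from that of the genotype. By percentage WT 1 had the lowest place of the 4 lists for 48 of 81 members (59.3%) and for 47.9% of all genes. By line number WT 1 was lowest for 39 members and PA 2 for 25. Over the 8924 genes WT 1 was then lowest for 3591 and PA 2 for 2740, and the part of WT 1 was not tested. On both scales Atp5mpl, a small proteolipid of ATP synthase, lay furthest toward the top in PA, and Ndufs7, a core subunit of complex I, furthest toward the top in WT. Atp5mpl stood at 40.8% and 40.3% in PA 1 and PA 2, and at 65.5% and 47.9% in WT 1 and WT 2. Ndufs7 stood at 27.7% and 11.4% in PA 1 and PA 2, and at 9.12% and 6.73% in WT 1 and WT 2. At both genes the groups did not overlap on either scale, and 1 library (WT 1 at Atp5mpl, PA 1 at Ndufs7) stood apart from the other 3. At Ndufaf7, an assembly factor, PA 1 alone stood at 28.0%, against 54.4% in PA 2 and 54.3% and 55.1% in WT 1 and WT 2.

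**Figure D3:**
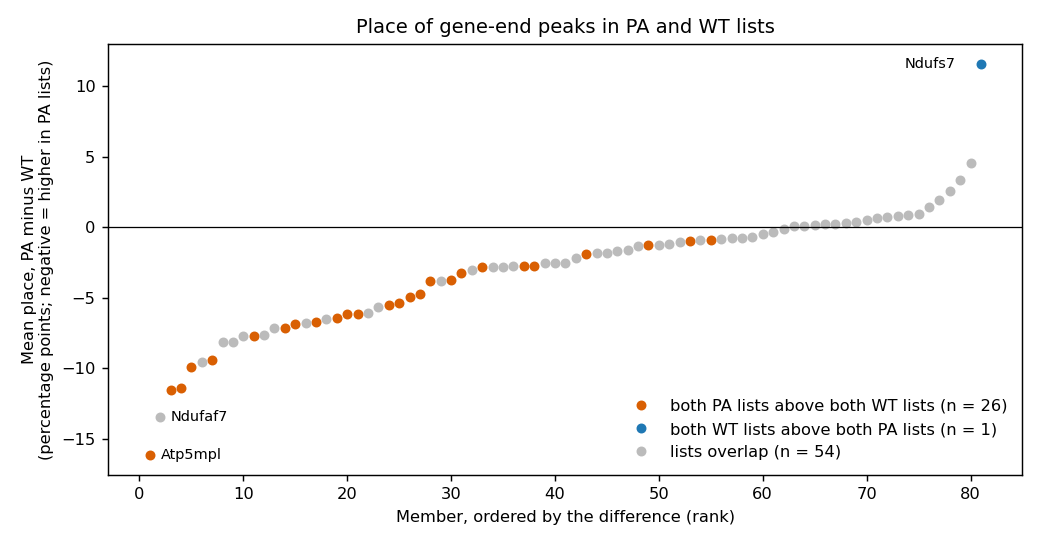
For each of the 81 members called in all 4 libraries, the point gives the mean place in the PA lists minus that in the WT lists, in percentage points, with members ordered by this value. Orange marks the 26 members with both PA lists above both WT lists, blue the 1 with the opposite order, and grey the 54 whose lists overlap; with place as a line number the 26 become 15 and the 1 becomes 4.

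In cytochrome c oxidase the common subunits were called more often than their relatives of other tissues. Cox4i2, known from lung and from low oxygen, Cox6a2 and Cox8b of heart and skeletal muscle, Cox6b2, Cox7b2 and Cox8c of testis, and Ndufa4l2, which is induced by low oxygen, had no gene-end peak in any library. For all of these but Ndufa4l2 the nearest peak of every library lay over 10 kb from either end. For Cox8b it lay 16881 and 16867 bp away in PA 1 and PA 2, and 16856 and 16855 bp away in WT 1 and WT 2. Their common counterparts Cox4i1, Cox6a1, Cox6b1, Cox8a and Ndufa4 were called in all 4 libraries, while Cox7b, the common counterpart of Cox7b2, was called in none. Cox6a1 stood at 44.6% and 34.5% in PA and at 57.6% and 37.0% in WT, and Cox8a at 44.9% and 40.8% in PA and at 62.8% and 34.2% in WT. Cox4i1 stood at 22.1% and 25.9% in PA and at 28.5% and 16.6% in WT, on a peak also within 1 kb of an end of Emc8. In each of these 3 genes the PA and WT values overlapped.

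Cox7a1, the heart and muscle isoform of subunit 7a that is also known from brown fat, was the isoform with a call in all 4 libraries. Its peak stood at 56.2% and 54.2% in PA and at 55.8% and 62.3% in WT, with its centre at -86 and -84 bp from the annotated start in PA and at -102 and -45 bp in WT, and no other protein-coding gene had an end within 1 kb. In the same lists 0 of 6 muscle markers and 0 of 2 brown fat markers (Ucp1 and Cidea) had a gene-end peak in any library. Of all protein-coding genes 48.3% had none either, and nor had the hepatocyte marker Apoa1. Which cells carry the Cox7a1 peak was not tested. Cox7a2l, a relative that joins complexes III and IV into supercomplexes, stood at 11.0% and 14.3% in PA and at 11.7% and 13.1% in WT.

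Some members without a gene-end call are ones that liver uses, and some of them had a peak at another start. Cox5a and Cox7a2, common subunits of complex IV, had a peak in all 4 libraries inside the gene. The promoter table of RefSeq (GRCm38.p6), which gave a start for 83 of the 102 members, puts the start of Cox5a 3904 bp and that of Cox7a2 11569 bp inside the listed gene span, and both peaks covered that start. The Cox7a2 region (chr9:79759605-79760008) stood at 7.11% and 5.36% in PA and at 7.13% and 7.76% in WT. The Cox5a region (chr9:57521012-57521416) stood at 22.6% and 20.0% in PA and at 33.0% and 18.3% in WT. Such a case, a start called in all 4 libraries without a gene-end call in all 4, was found for 4.06% of all genes with a listed start.

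Atp5d, Cox7b and Ndufb10 remained without a call at either end or at a listed start. Atp5d encodes the delta subunit of the F1 head of ATP synthase, and its nearest peaks lay 13979 and 21694 bp from a gene end in PA 1 and PA 2, and 13929 and 14008 bp in WT 1 and WT 2. For Cox7b, a common subunit of complex IV on the X chromosome, they lay 3625 and 3605 bp away in PA and 3640 and 3624 bp away in WT. For Ndufb10 of complex I they lay 1872 and 1852 bp away in PA and 1851 and 1872 bp away in WT. A missing call is not a closed promoter, since read depth is unknown. Ndufb4b and Ndufb4c, the copies of Ndufb4, had no call, while Ndufb4 itself was called in all 4 libraries.

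At annotated starts the peaks were tightly placed. Of the 83 members with a listed start, 70 (84.3%) had a peak within 1 kb of it in all 4 libraries, where 44.2% of the 17274 genes with a listed start did. The start was called in no library for 8 of the 83 members and in 1 to 3 libraries for 5. Peak centres lay at a median of -51.0 and -43.5 bp from the start in PA 1 and PA 2, and of -55.0 and -51.0 bp in WT 1 and WT 2. Taken as the median over libraries, the centre lay within 200 bp of the start for 67 of the 70 members (95.7%) and for 85.0% of the genes called in the same way. By this median Ndufa4, Uqcr10 and Ndufa11 were the 3 exceptions, and in single libraries others lay further off, such as Sdhaf2 at -430 bp in WT 2. At Ndufa11 the peak was also within 1 kb of an end of the neighbouring gene Vmac. The centre of this peak lay at -714 and -706 bp from the Ndufa11 start in PA, and at -679 and -693 bp in WT. Over the 4 libraries the centre of a member's peak moved by a median of 36.0 bp, and by 41.0 bp over all genes. The widest range among members was 434 bp, at Sdhaf2.

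**Figure D4:**
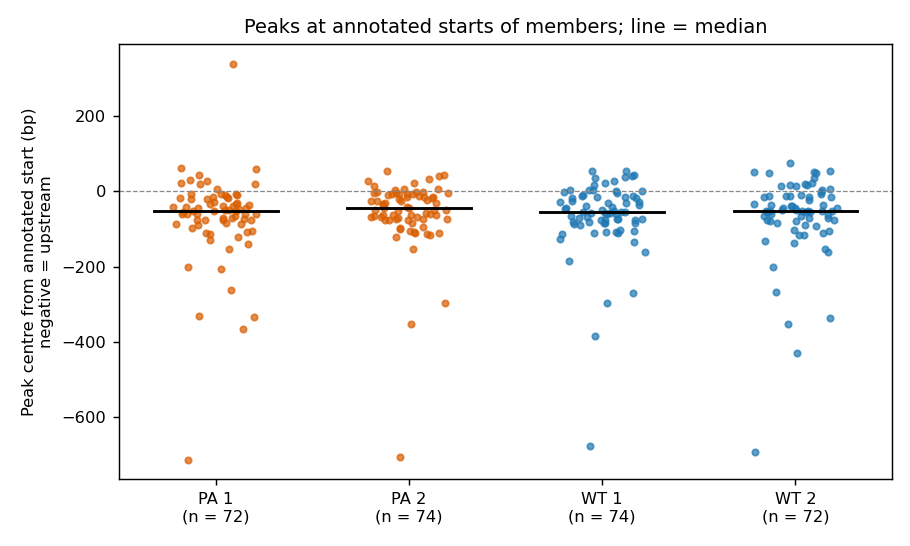
Points give the distance in bp from the annotated start of a member to the centre of its nearest peak, by library, with negative values upstream and the line at the median. The medians lie between -55.0 and -43.5 bp in all 4 libraries, and the lowest point of each library is Ndufa11.

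Members often shared their open site with a neighbour. Another protein-coding gene had an end within 1 kb of the peak for 40 of the 81 members called in all 4 libraries (49.4%), and for 28.7% of all genes so called. Several partners are themselves mitochondrial genes: Mrpl47 beside Ndufb5 and Mrpl36 beside Ndufs6 encode mitochondrial ribosomal proteins, and Timm8b beside Sdhd encodes a protein import chaperone. Where a peak is shared, the lists cannot assign it to 1 of the genes. Ndufb6 is a case where it matters, since its highest peak stood at the end next to Topors and Smim27.

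The promoter windows of 6 members are shown to set genes called in all 4 libraries beside an isoform without a call. Each window runs 5' to 3' from 250 bases before to 50 bases after the start (RefSeq, GRCm38.p6). Capitals mark exact matches on either strand to 7 of the 9 motifs searched. These are NRF1 (with GCGC at either end), YY1 (with AAGATGG at its start), ZNF143 (with ACTACAA at its start), ETS and GABPA (CCGGAAGT), ERR (TCAAGGTCA), CREB (TGACGTCA) and the TATA box (TATAAA), and the matches to SP1 (GGGCGG) and NFY (CCAAT) are left in lower case. The motifs do not contain one another.
Cycs (chr6:50566520-50566819, reverse strand): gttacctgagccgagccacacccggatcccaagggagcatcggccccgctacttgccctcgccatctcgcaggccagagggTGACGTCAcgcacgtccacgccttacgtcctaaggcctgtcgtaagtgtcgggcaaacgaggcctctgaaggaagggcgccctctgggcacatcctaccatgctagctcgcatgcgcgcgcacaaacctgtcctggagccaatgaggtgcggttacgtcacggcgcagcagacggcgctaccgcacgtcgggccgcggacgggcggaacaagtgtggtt
Ndufs6 (chr13:73328433-73328732, reverse strand): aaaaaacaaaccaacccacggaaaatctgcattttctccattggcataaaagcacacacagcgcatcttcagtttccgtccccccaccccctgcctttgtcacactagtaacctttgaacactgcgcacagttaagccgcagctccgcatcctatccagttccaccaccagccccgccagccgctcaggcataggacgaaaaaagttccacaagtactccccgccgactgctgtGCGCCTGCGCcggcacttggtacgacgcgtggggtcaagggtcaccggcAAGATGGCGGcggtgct
Sdhd (chr9:50603800-50604099, reverse strand): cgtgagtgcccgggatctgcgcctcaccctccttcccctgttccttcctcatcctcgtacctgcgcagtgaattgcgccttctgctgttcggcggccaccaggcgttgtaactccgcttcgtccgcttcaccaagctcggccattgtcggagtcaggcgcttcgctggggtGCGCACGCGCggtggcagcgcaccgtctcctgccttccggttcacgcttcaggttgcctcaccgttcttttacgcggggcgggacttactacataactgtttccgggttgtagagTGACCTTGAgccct
Cox6a1 (chr5:115348909-115349208, reverse strand): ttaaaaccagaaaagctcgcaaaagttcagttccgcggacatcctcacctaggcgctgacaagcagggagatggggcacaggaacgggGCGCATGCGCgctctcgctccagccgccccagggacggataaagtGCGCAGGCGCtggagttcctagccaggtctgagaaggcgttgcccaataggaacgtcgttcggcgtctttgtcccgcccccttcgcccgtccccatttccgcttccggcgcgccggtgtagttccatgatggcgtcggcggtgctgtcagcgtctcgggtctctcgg
Cox7a1 (chr7:30183921-30184220, forward strand): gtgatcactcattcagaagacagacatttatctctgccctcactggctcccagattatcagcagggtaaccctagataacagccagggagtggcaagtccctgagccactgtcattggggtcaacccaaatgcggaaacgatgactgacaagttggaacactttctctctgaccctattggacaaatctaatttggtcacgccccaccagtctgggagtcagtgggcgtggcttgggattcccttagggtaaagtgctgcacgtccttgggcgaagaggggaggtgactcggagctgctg
Cox8b (chr7:140900397-140900696, reverse strand): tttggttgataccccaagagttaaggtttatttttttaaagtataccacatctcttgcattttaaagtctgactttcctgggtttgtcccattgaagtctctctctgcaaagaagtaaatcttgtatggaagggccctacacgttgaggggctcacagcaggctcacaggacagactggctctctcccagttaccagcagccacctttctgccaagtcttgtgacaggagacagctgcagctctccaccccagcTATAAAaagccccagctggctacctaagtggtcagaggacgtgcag
Cycs, among the highest members of every list, holds 1 CREB match. Ndufs6 holds an NRF1 match at position -16 from the start and a YY1 match at position 33. Sdhd, a membrane anchor of complex II, holds an NRF1 match and an ERR match, and Cox6a1 holds 2 NRF1 matches. Cox7a1 holds none of the 7. Cox8b holds a TATAAA 4 bases after the start, and its window has the lowest ratio of observed to expected CpG of the 6, at 0.115, against 0.33 for Cox7a1, 1.08 for Cox6a1 and 1.01 for Cycs.

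The 83 members with a listed start have 88 windows, since some have several starts. NRF1 letters were found in 22 of them (25.0%) and in 6.44% of the 21045 windows of all protein-coding genes. Among windows whose start was called in all 4 libraries the share was 29.7% for members and 11.6% for all genes. These matches lay in 21 genes, 9 of complex I and its assembly, 4 of complex II and its assembly, 1 each of complexes III and IV, and 6 of ATP synthase. The 27 distinct matches began at a median position of -30.0. YY1 letters were found in 6 member windows (6.82%, against 1.22% of all windows), at Ndufa9, Ndufaf8, Ndufs4, Ndufs6, Ndufs7 and Atp5j, at a median of 26.5 bases after the start. ERR letters were found in 2 windows (2.27%, against 0.337%), those of Sdhd and Atp5g3. ZNF143 letters were found in 5.68% of member windows and 1.48% of all windows, and among called windows in 4.05% and 2.63%. CREB letters were found in 5.68% and 2.26%, and among called windows in 6.76% and 3.45%. For ETS and TATAAA the direction turned between these sets. ETS letters were found in 5.68% of member windows and 5.20% of all windows, but in 5.41% of called member windows against 8.79% of all called windows. TATAAA was found in 11.4% of member windows and 12.7% of all windows, and in 9.46% and 6.76% of the called ones. CCAAT was found in 42.0% of member windows and 38.5% of all windows, and in 40.5% and 40.3% of the called ones. The short GGGCGG was found in 46.6% of member windows and 46.7% of all windows, and in 48.6% of called member windows against 65.7% of all called windows. A match is only a run of letters and says nothing on whether the factor was bound.

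**Figure D5:**
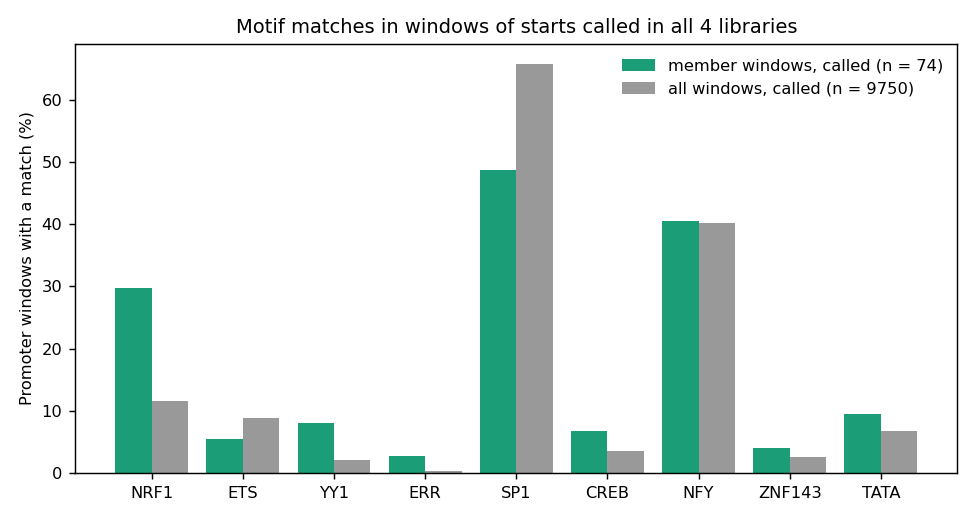
Bars give the percentage of promoter windows with at least 1 exact match to each motif, on either strand, among windows whose start was called in all 4 libraries, for 74 member windows (green) and 9750 windows of all protein-coding genes (grey). NRF1 stands at 29.7% and 11.6%, and SP1 at 48.6% and 65.7%.

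Base composition went partly with these calls. Member windows had a median GC content of 58.7% and a median CpG ratio of 0.831, and all windows had 56.7% and 0.574. Among windows called in all 4 libraries the values were 59.5% and 0.856 for members and 61.7% and 0.786 for all genes. The 9 member windows with no call had 52.0% and 0.564. NRF1 letters contain CpG, and the part of composition in the motif shares was not tested.

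Away from gene ends members had few peaks. A peak inside the gene and over 1 kb from both ends was present in all 4 libraries for 5 of 102 members, against 16.8% of all genes, and in any library for 10 members, against 29.4%. Members were shorter, with a median length of 7228 bp against 17329 bp for all genes. The part of gene length in the count was not tested. Besides Cox5a and Cox7a2, Ndufa8 and Sdhc had such a peak in all 4 libraries. The region in Ndufa8 (chr2:36039561-36039975) stood at 60.7% and 36.5% in PA and at 58.1% and 61.2% in WT. That in Sdhc (chr1:171142951-171143684) stood at 84.0% and 62.5% in PA and at 79.2% and 52.7% in WT. Ndufa7 had such a region in PA 1, PA 2 and WT 1, and Ndufaf6 in PA 2, WT 1 and WT 2.

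Merged over libraries, the members had 88 regions near gene ends and 11 inside. Of the 88, 82 (93.2%) were called in all 4 libraries, where 73.6% of the 10571 regions within 1 kb of any protein-coding gene end were, and 0 were restricted to a genotype. Of the 11 inside regions 5 were shared by all 4 libraries, as were 45.3% of all 38853 regions of the series. Regions found in only 1 library numbered 3 of the 11 and 10412 of the 38853, so both counts lay near the shares of all regions. Those shares include the regions near gene ends, and regions away from gene ends were not counted apart. A single inside region was restricted to a genotype, in Ndufaf2, an assembly factor of complex I whose gene spans 106064 bp (chr13:108070141-108070579, WT only), where 768 of the 38853 regions of the series were restricted to WT. It stood at 36.8% and 33.1% in WT 1 and WT 2. The nearest peaks of PA 1 and PA 2 lay 25501 and 25535 bp away. The gene-end peak of Ndufaf2, which is shared with Ercc8, was called in all 4 libraries.

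Other genes that build or serve the chain were called about as often as the members. Of 67 matched genes in 6 lists, 54 (80.6%) were called in all 4 libraries and 8 in none, and 0 were called in a full pair of 1 genotype with no call in the other genotype. The assembly factors of complexes III and IV had 24 of 27, with Surf1 called in WT 1 alone and Sco2, a copper chaperone of complex IV, in none. The further assembly factors of complex I had 7 of 9, those of ATP synthase 3 of 4, and coenzyme Q synthesis 8 of 11, with Pdss2 and Coq5 called in none and Coq4 in PA 1 alone. All 3 genes that feed electrons from fatty acid and amino acid oxidation into coenzyme Q (Etfa, Etfb and Etfdh) were called. Among regulators 9 of 13 were called. Yy1 stood at 1.89% and 1.76% in PA and at 2.38% and 1.82% in WT, and Esrra, which encodes ERR alpha, at 3.31% and 3.16% in PA and at 5.28% and 3.03% in WT. Nrf1 stood lower, at 25.8% and 24.5% in PA and at 30.1% and 25.3% in WT. The groups overlapped at Yy1 and Esrra and did at Nrf1 as well, where 25.8% in PA 1 lay below 25.3% in WT 2. Ppargc1a and Ppargc1b, the PGC-1 coactivators, had no gene-end peak in any library, nor had Gabpb1 and Polg.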

How the data were processed

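Peak lists of 4 mouse liver ATAC-seq libraries, 2 PA and 2 WT, were used as deposited by the authors, with chromosome, start and end and no other value. The submitters' processing notes name HOMER 4.10, Bowtie2 2.5.1, bedtools 2.31.0, cutadapt 3.5, R 4.1.2 and SAMtools 1.17, with GRCm38 (mm10) as the build. Not given in the sources used here are peak caller, threshold, read filters and any transposase shift. A deeper library can pass a threshold at more places, and depth is unknown.

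Groups came from sample titles, and the design calls the replicates biological. Gene spans, starts and promoter windows came from RefSeq (GRCm38.p6). Calls, places and motifs were computed with Python 3.11.15, pandas 2.3.3 and numpy 2.4.6, and the calling was tested on simulated peaks. Peaks that overlapped or touched were merged into regions. The members, gene lists and rules were chosen with earlier results of these data known. Named are members with mixed or no calls or with peaks inside the gene, the 8 highest and 8 lowest by mean place, isoforms and core subunits. Atp5mpl, Ndufaf7, neighbours and the regulators and windows shown were chosen after their values were seen. Alternatives were the window size, equal list lengths, the upper 50% of lists, starts only, peak centres, members without assembly factors, each library left out and, chosen after seeing the data, place as a line number. The values of 1 member are not reported here, and it stays in the counts.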

Additional observations from a re-analysis of the deposited data

How the results depend on the processing

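Of 67 recomputed counts, 57 stayed within 1.5 times the reported count. The 81 members called in all 4 libraries became 78 at 500 bp, 82 at 2 kb, 81 with every list held to 25683 lines, 80 by peak centre, 70 of 90 without assembly factors and 70 of 83 at annotated starts. In the upper 50% of every list 60 were called in all 4, 27 in none and 15 in 1 to 3 libraries, and 3 had a peak inside the gene in all 4, since fewer lines are used. At annotated starts, where both the genes and the places tested differ, 8 were called in none. At 500 bp 1 member, Ndufa11, was called in WT 1 and WT 2 and in no PA library; its peak lies near that limit in all 4. Leaving out 1 library, the members called in every other library numbered 81 to 82. Calls in 1 genotype alone then ranged from 0 to 1 for PA (Atp5j2 without WT 1, Ndufa13 without WT 2) and from 0 to 1 for WT (Ndufb8 without PA 1). With place as a line number, an alternative chosen after seeing the data, 15 members in place of 26 had both PA lists above both WT lists, and 4 in place of 1 had the opposite order. No paired analysis was possible, since no label ties the replicate numbers to a shared litter, batch or day. The counts come from no test. Place in the list is of unknown meaning, and the lists limit the results to presence or absence of a call at unknown depth.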
